A study of Mus musculus with 6 samples.

Results

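The 52 genes described here are markers of the cells that surround neurons in the hippocampus. They comprise 13 astrocyte, 11 oligodendrocyte, 12 microglia, 10 vascular and 6 choroid plexus genes, chosen by name. All 52 had at least 1 probe set with a single gene symbol in the annotation of the Affymetrix Mouse Genome array, and each gene is represented by its probe set of highest mean over the 6 arrays. A filter on dim probe sets left 37 of them among the 14678 genes tested in all. The other 15 are given by intensity only.

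Astrocytes take up glutamate and potassium around synapses and supply neurons with metabolites. Oligodendrocytes wrap axons in myelin, a stack of membrane held together by proteins such as myelin basic protein, and their development depends on the transcription factors Olig1, Olig2 and Sox10. Microglia are the resident macrophages of brain, which sense damage and complement-tagged material. Endothelial cells form the capillary wall and its tight junctions, and pericytes and smooth muscle cells cover it. The choroid plexus is a secretory epithelium inside the ventricles, close to the hippocampus, that makes cerebrospinal fluid and produces transthyretin in large amounts. None of these cells is a neuron, although neurons make some of these transcripts too.

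Total RNA of isolated hippocampal cells was hybridised from mice labelled control and mice labelled transgenic, in a series titled for overexpression of HuD. This protein, the product of Elavl4, binds and stabilises neuronal mRNAs. The label for the cells is DGCs, understood here from knowledge of the study as dentate granule cells, which relay cortical input into the hippocampus. Each group has 2 mice and 3 arrays: mouse 1 gave 1 array and mouse 2 gave 2 arrays. All 6 arrays carry a treatment of the type preservation. The tag re-LCM, which the labels do not explain, stands in the titles of mouse 1 of both groups and of array 1 of transgenic mouse 2, with the word block added on the last. The arrays described as control mouse 2 are numbered control 1 and control 2 in their titles, so the assignment of arrays to mice rests on the descriptions alone. Strain, age and sex were not analysed here, and from what is known of these mice the transgene is driven by the CaMKII alpha promoter, which is active in forebrain neurons. P-values, SEs and intervals of the group comparison rest on the spread between these few mice. The program limma draws that spread toward the variance of the other genes, so it is not each gene's own alone. The 2 arrays of a mouse were averaged before this comparison. The comparison by tag took the 6 arrays as separate samples.

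The Elavl4 probe sets do not separate the groups. The highest of them read 122 on control mouse 1, 92.8 and 63.7 on the arrays of control mouse 2, 79.4 on transgenic mouse 1 and 93.3 and 60.1 on those of transgenic mouse 2. Its difference, transgenic minus control, was -0.33 log2 units (SE 0.27, limma adjusted p = 0.999), and the other 2 probe sets were lower too, by -0.15 and -0.73. Whether these probe sets lie within the transgene is not given in the sources used here, so the groups rest on the labels. Markers of granule cells were even across the arrays: all 14 listed genes were tested, and their summed intensity lay between 32729 and 36450. Calb1, the calcium-binding protein of mature granule cells, read between 6736 and 7444, and Dsp, a desmosome protein enriched in the dentate gyrus, between 6366 and 9391.

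Values below are linear intensities, scaled by the authors to the same mean on every array. They are listed in a fixed order: control mouse 1, control mouse 2 array 1, control mouse 2 array 2, transgenic mouse 1, transgenic mouse 2 array 1 and transgenic mouse 2 array 2. Intensities of different probe sets are not compared with each other. Differences between arrays or groups are within 1 probe set and on the log2 scale, where 1 unit is a doubling. In bulk RNA, fewer cells of a type and less RNA per cell cannot be told apart.

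The choroid plexus gene Ttr varied more across the arrays than any other gene tested. Ttr encodes transthyretin, the carrier of thyroid hormone and retinol that choroid plexus epithelium secretes. Its probe set read 11996, 178, 319, 741, 17436 and 1118. It was therefore high on 1 control array and 1 transgenic array, control mouse 1 and transgenic mouse 2 array 1, and the groups overlapped. The highest array exceeded the lowest 98.1-fold, a range of 6.62 log2 units that ranked 1 of 14678, ahead of 3.96 for the next gene, Irf2bpl, named here only for its rank.

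The same 2 arrays were high on every Ttr probe set. The second read 7655, 51.1, 226, 406, 12366 and 597. The third read 2834, 34.7, 120, 148, 3485 and 314, and the dimmest 326, 3.8, 2.8, 5.9, 391 and 6.4. On the dimmest probe set the other 4 arrays lay under 10.1, the intensity at which low values were floored. The lower of the 2 high arrays exceeded the highest of the other 4 by 10.7-fold on the first probe set. Ttr was the only gene of 14678 for which this pair of arrays stood more than 2-fold above the rest.

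Both high arrays carry the tag re-LCM, and the third tagged array, transgenic mouse 1, read 741. Within transgenic mouse 2 the tagged array exceeded the untagged array 15.6-fold, although both are described as the same mouse. Within control mouse 2, where neither array has the tag, array 1 was 0.56 times array 2. The group means of Ttr were log2 10.72 ± 4.0 (SD, n = 2 mice) in control and 10.82 ± 1.8 (SD, n = 2) in transgenic mice. Their difference was 0.10 (SE 2.03, 95% interval -5.23 to 5.42, limma adjusted p = 0.999), so the spread between mice far exceeded it. Leaving out control mouse 1 moved it to 2.93 and leaving out control mouse 2 to -2.73.

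**Figure D1:**
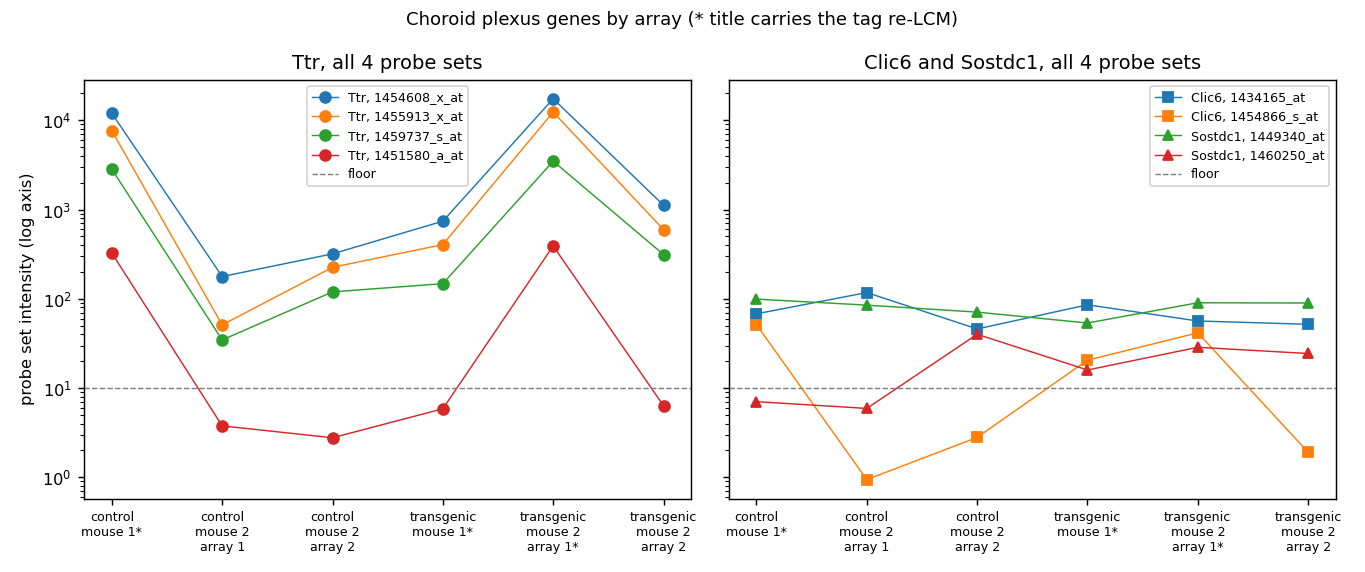
Intensity on a log axis of every probe set of Ttr (left) and of Clic6 and Sostdc1 (right) on the 6 arrays; the dashed line is the floor and lines join the values of 1 probe set for reading only. All 4 Ttr probe sets peak on control mouse 1 and transgenic mouse 2 array 1, where the first reads 11996 and 17436, while the probe sets of Clic6 and Sostdc1 that passed the filter stay between 46.0 and 118.

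The other choroid plexus members did not vary on that scale. Sostdc1, a secreted antagonist of BMP and Wnt signalling, read 99.3, 85.0, 71.0, 53.6, 90.4 and 89.8. Its 2 highest arrays were the same as those of Ttr, but the next array, at 89.8, lay just below the second. Clic6, a chloride channel family protein of choroid epithelium, read 68.0, 118, 46.0, 85.7, 56.5 and 51.8, highest on control mouse 2 array 1. A second Clic6 probe set, which did not pass the filter, read 51.4, 0.9, 2.8, 20.6, 41.6 and 1.9. Its 2 highest arrays were those of Ttr, and the 3 untagged arrays lay under the floor.

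The remaining choroid genes were too dim to test. Kl, which encodes the anti-ageing membrane protein Klotho, read 30.6, 16.7, 16.5, 30.7, 34.7 and 11.6, with all 3 tagged arrays above the 3 untagged arrays. The second Kl probe set did not show this. It was above the floor only on the untagged control mouse 2 array 2, at 23.2. Folr1, the folate receptor of the plexus, read between 18.2 and 35.6 and was not highest on either of the Ttr-rich arrays. Otx2, the transcription factor that specifies the plexus, was above the floor only on control mouse 2 array 1 and transgenic mouse 1, at 14.8 and 29.9.

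A longer list of 23 choroid genes held 6 that were tested, of which 4 were lower and 2 higher in transgenic mice (median -0.31). Ecrg4, a secreted peptide precursor, read 161, 81.5, 62.3, 45.9, 231 and 66.8. Kcnj13, a potassium channel of the apical membrane, read 67.3, 32.6, 35.7, 17.2, 64.1 and 27.2. Both were highest on the 2 arrays that were high for Ttr. Car12, a carbonic anhydrase, had the same 2 highest arrays, so that 3 of the 6 genes did, against 6.81% of all 14678 genes. Slc29a4, a monoamine transporter, read between 3123 and 3978 and did not follow them. Of 12 ependymal genes, which mark the cilia-bearing lining of the ventricles, 4 were tested, and their median level was 0.09 on control mouse 1 and 0.33 on transgenic mouse 2 array 1, beside 0.28 on control mouse 2 array 1.

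Oligodendrocyte markers were highest on control mouse 1. Of the 8 tested, 7 had their highest value on that array, including all 6 tested myelin genes, against 14% of all genes. Their median deviation from the mean of the 6 arrays was 0.85, -0.05, -0.34, -0.79, 0.21 and -0.18. Transgenic mouse 1 was the lowest array for 5 of the 8, where 17.1% of all genes had their lowest value. Control mouse 1 was also high for neuronal markers other than those of granule cells: 6 of 11 tested interneuron genes and 6 of 8 tested pyramidal cell genes were highest on it, with median deviations of 0.73 and 0.46.

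Among the genes of compact myelin, Mbp, the major structural protein of the myelin sheath, read 7661, 3871, 3010, 4022, 5297 and 3727. Control mouse 1 stood 1.45-fold above the next array, and 6 of the 8 Mbp probe sets had their highest value there. Mobp, a small basic protein of oligodendrocyte myelin, read 683, 235, 137, 219, 308 and 209. That array exceeded the next 2.22-fold and the lowest 4.97-fold, and all 3 Mobp probe sets that passed the filter were highest there. Mal, a lipid raft proteolipid of myelin, read 218, 115, 61.7, 42.1, 122 and 96.9. Its second probe set read 133, 112, 139, 51.4, 102 and 60.1, highest on control mouse 2 array 2, so the 2 probe sets share only the low value of transgenic mouse 1.

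Cnp, an enzyme of non-compact myelin, read 3123, 1728, 1292, 1105, 2301 and 1599. Cldn11, the tight junction protein between myelin layers, read 135, 60.2, 68.8, 37.0, 79.7 and 72.8. Both were highest on control mouse 1, next highest on transgenic mouse 2 array 1 and lowest on transgenic mouse 1. Mag, the adhesion protein that faces the axon, read 88.9, 84.5, 47.8, 56.3, 42.0 and 39.6, and here transgenic mouse 2 array 1 was not raised. Mog, a protein of the outermost myelin layer, was under the filter at 43.9 on control mouse 1 and between 3.3 and 23.6 elsewhere.

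Control mouse 1 and transgenic mouse 2 array 1, the pair that was high for Ttr, were also the 2 highest arrays for the myelin genes Mbp, Mobp, Cnp, Cldn11 and Mal. Across all tested members this held for 9 of 37 (24.3%), the others being Gja1, Tyrobp, Ttr and Sostdc1, against 6.81% of all genes. The sizes were unlike: transgenic mouse 2 array 1 exceeded array 2 of the same mouse 15.6-fold in Ttr, but 1.42-fold in Mbp, 1.48-fold in Mobp, 1.44-fold in Cnp, 1.26-fold in Mal and 1.10-fold in Cldn11. The part of choroid plexus or myelin material in these preparations was not tested.

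Of the lineage transcription factors, Olig1 read 260, 136, 146, 75.4, 114 and 193. It was highest on control mouse 1 and lowest on transgenic mouse 1, as were Cnp, Cldn11 and Mal, and its second highest array was transgenic mouse 2 array 2. Sox10 read 74.5, 91.2, 58.6, 21.8, 54.1 and 42.1, and all 3 transgenic arrays lay below all 3 control arrays. Its second probe set did not show this: it read 32.0, 74.7, 36.3, 44.2, 63.1 and 60.9, with a difference of 0.36 in the other direction. Olig2 was dim, between 2.6 and 26.2, and Pdgfra, the growth factor receptor of oligodendrocyte precursors, read 51.6 on control mouse 1 and 3.1 on transgenic mouse 1, with 19.7 to 39.5 on the other arrays. Both were highest on control mouse 1 and neither passed the filter.

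The promoters of 2 of the myelin genes whose levels varied together are shown because they hold a short word that Sox family factors recognise, and Sox10 is itself among the members. They are the 250 bases before the RefSeq transcription start (GRCm38.p6), with ACAAAG or its reverse complement CTTTGT in capitals, Mobp from chr9:120149492-120149741 on the plus strand with 6 matches and Cnp from chr11:100574689-100574938 on the plus strand with 1.
Mobp: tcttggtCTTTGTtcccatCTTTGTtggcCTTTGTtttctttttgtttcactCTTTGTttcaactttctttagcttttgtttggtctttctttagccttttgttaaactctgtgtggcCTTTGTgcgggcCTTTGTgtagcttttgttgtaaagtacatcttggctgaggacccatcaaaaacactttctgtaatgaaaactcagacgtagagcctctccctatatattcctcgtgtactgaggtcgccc
Cnp: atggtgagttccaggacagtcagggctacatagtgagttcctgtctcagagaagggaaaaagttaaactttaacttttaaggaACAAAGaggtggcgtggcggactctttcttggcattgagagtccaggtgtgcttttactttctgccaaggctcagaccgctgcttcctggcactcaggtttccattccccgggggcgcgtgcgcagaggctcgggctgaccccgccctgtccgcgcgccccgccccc
Of the 52 members, 35 had an entry in the promoter table. A gene was counted if any of its entries held the word, and an entry of Mag did not hold it. Counted so, it was present for 6 of the 35 genes. By class it was present for 3 of 8 oligodendrocyte genes (Cnp, Mag and Mobp) and 2 of 9 microglia genes (Ctss and P2ry12). For the other classes it was 1 of 6 vascular genes (Tek), 0 of 10 astrocyte genes and 0 of 2 choroid plexus genes. Over single promoter entries of the same length it was present in 16.5% of 32851. That is a rate per entry, so the counts per gene are not directly comparable with it. It was chosen after other motifs had been looked at, and a match describes the letters and not a binding site.

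In the longer oligodendrocyte list 21 of 31 genes were tested, 14 lower and 7 higher in transgenic mice, with a median difference of -0.38. The enzyme Fa2h, which makes hydroxylated myelin lipids, read 131, 83.2, 69.8, 37.7, 78.7 and 75.3, highest on control mouse 1 and lowest on transgenic mouse 1. Qdpr, a pterin reductase with high expression in oligodendrocytes and other cells, read 6972, 7815, 6368, 7409, 9093 and 5703, highest on transgenic mouse 2 array 1. Edil3, a secreted integrin-binding protein, went the other way, at 718, 316, 564, 2685, 1918 and 2856. All 3 transgenic arrays lay above all 3 control arrays, with a difference of 2.19 (SE 0.30, limma adjusted p = 0.999). The only other Edil3 probe set that passed the filter differed by 0.10, with overlap. A probe set under the filter read 4.6, 33.5, 4.6, 56.7, 53.7 and 51.7. Its transgenic arrays all lay above its control arrays, with a difference of 2.01. The remaining probe sets, also under the filter, differed by 0.70, 0.46 and 0.33, with overlap.

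**Figure D2:**
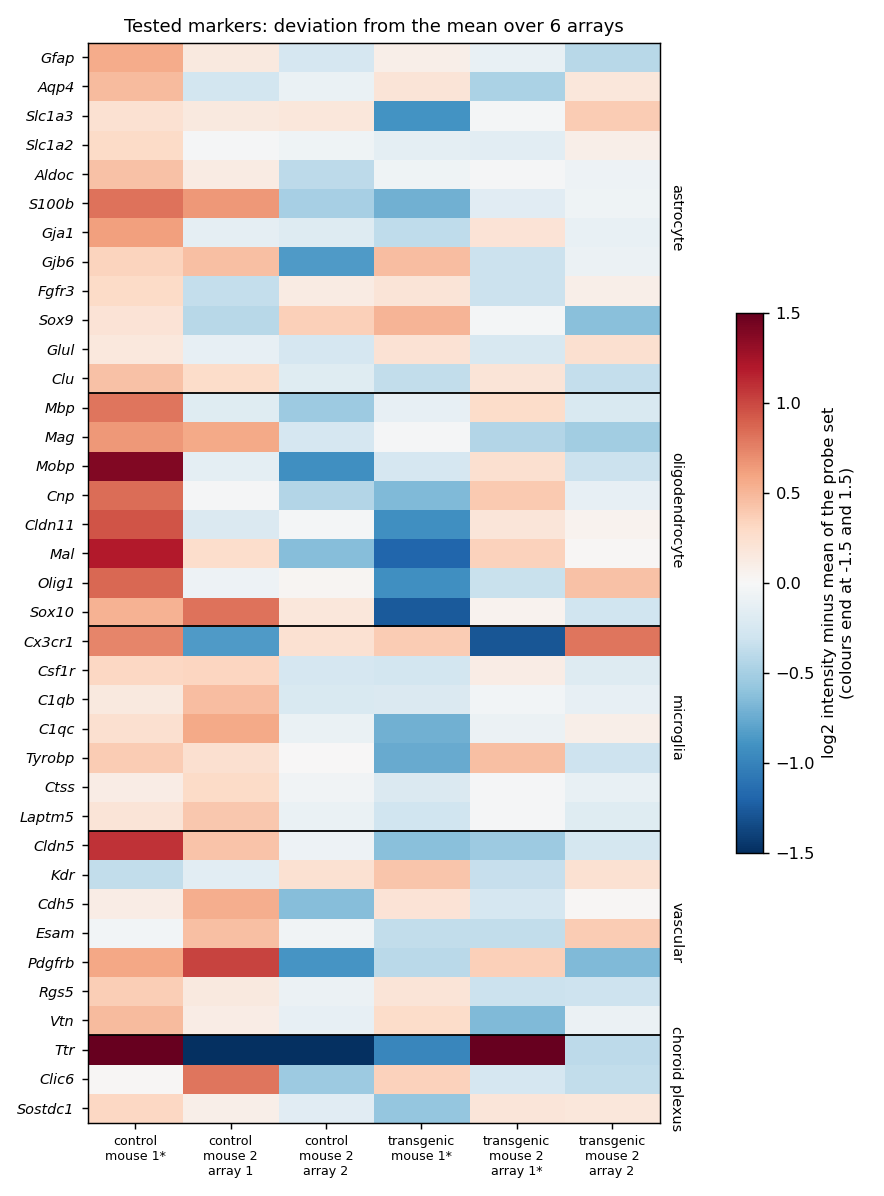
Each row is a tested member and each column an array (* tag re-LCM); colour gives the log2 intensity minus the mean of that probe set over the 6 arrays, red above and blue below, with colours ending at -1.5 and 1.5. The column of control mouse 1 is the highest for 19 of the 37 members and that of transgenic mouse 1 the lowest for 16, and Ttr is past the colour scale on 4 arrays.

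Astrocyte markers varied less. Their median deviations were 0.39, 0.05, -0.19, 0.01, -0.13 and -0.07, and 8 of the 12 tested were highest on control mouse 1. Gja1, the main gap junction protein of astrocytes, read 2516, 1500, 1440, 1260, 1901 and 1526, with 4 of its 5 probe sets highest on control mouse 1. Clu, a secreted chaperone, read 9623, 8625, 6268, 5484, 8093 and 5537. S100b, a calcium-binding protein, read 240, 214, 97.1, 82.8, 121 and 131, with control mouse 1 and control mouse 2 array 1 set apart from the other 4 arrays. Array 1 of control mouse 2 was 2.21-fold above array 2 of that mouse, beside a difference of -0.87 between the group means. A second S100b probe set read 32.4, 34.6, 39.0, 45.7, 15.9 and 41.8, highest on transgenic mouse 1, with a difference of -0.006.

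The glutamate-handling genes Slc1a2 and Glul had the smallest ranges of the class, 0.44 and 0.49 log2 units. Glul, which encodes glutamine synthetase, read 2173, 1784, 1637, 2263, 1649 and 2298, and control mouse 1 was not its highest array. A dimmer Glul probe set read 32.2, 49.9, 31.4, 14.5, 32.2 and 51.4, low on transgenic mouse 1. The glutamate transporter Slc1a2 read 1510, 1217, 1177, 1115, 1110 and 1316. The other transporter, Slc1a3, read 711, 671, 679, 326, 592 and 785, so that transgenic mouse 1 alone was low on this probe set. The other Slc1a3 probe sets that passed the filter did not single out that array: the next read 596, 557, 331, 323, 450 and 329, with 3 arrays low, and the third was lowest, at 77.5, on transgenic mouse 2 array 2. The intermediate filament gene Gfap, which rises in reactive astrocytes, read 311, 235, 177, 225, 196 and 159.

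Of the others, Aldoc, a glycolytic enzyme, read between 664 and 1184 and the water channel Aqp4 between 93.4 and 181, both highest on control mouse 1. The growth factor receptor Fgfr3 read between 79.0 and 125. The gap junction protein Gjb6 read between 30.2 and 75.2 and the transcription factor Sox9 between 31.4 and 69.3, both highest on transgenic mouse 1. Aldh1l1, a folate enzyme specific to astrocytes, was under the filter at 13.2 to 40.8. In the longer astrocyte list 16 of 21 tested genes were lower and 5 higher in transgenic mice (median -0.21). Fabp7, the fatty acid binding protein of radial glia and astrocytes, read 411, 215, 264, 85.0, 301 and 195, lowest on transgenic mouse 1, whereas the synaptogenic protein Sparcl1 stayed between 2472 and 3111.

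Microglia markers had another order of arrays by their medians. Their median deviations were 0.24, 0.32, -0.09, -0.28, -0.02 and -0.12. By the mean deviation control mouse 1 was the highest array, at 0.30 beside 0.20 on control mouse 2 array 1. None of the 7 tested was highest on control mouse 1. Instead 5 were highest on control mouse 2 array 1, against 18.6% of all genes. On transgenic mouse 1, 5 were lowest, against 17.1% of all genes. Csf1r, the receptor on which microglia depend for survival, read 2348, 2365, 1591, 1567, 2046 and 1658. A second Csf1r probe set read 204, 237, 159, 143, 162 and 152, with the same highest and lowest arrays. The dimmest that passed the filter read 74.2, 74.0, 84.6, 88.6, 79.4 and 96.8, lowest on the array that was highest in the brighter probe sets.

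The complement gene C1qb read 505, 630, 388, 392, 442 and 419, and C1qc 43.2, 53.9, 34.2, 22.2, 34.4 and 38.8. Ctss, a lysosomal protease, read 779, 875, 696, 617, 711 and 669, and Laptm5, a lysosomal membrane protein, 445, 517, 364, 319, 385 and 345. For all 4 of these probe sets control mouse 2 array 1 was the highest array, and array 2 of the same mouse lay 1.26-fold to 1.62-fold below it. The other 3 Laptm5 probe sets that passed the filter were not highest on that array, and 2 of them were lowest there, at 46.3 and 4.0. Tyrobp, the signalling adaptor of Trem2, read 110, 99.1, 84.4, 49.6, 115 and 67.6. It was highest on transgenic mouse 2 array 1. Cx3cr1, the fractalkine receptor, read 74.2, 24.7, 52.3, 58.2, 18.4 and 78.0, lowest on transgenic mouse 2 array 1 and highest on array 2 of that mouse.

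The remaining 5 microglia genes were dim. Itgam, an integrin of myeloid cells, was under the floor on all 6 arrays. Aif1, an actin-binding protein, passed the floor on 2 arrays, C1qa lay between 13.3 and 43.1, Trem2 between 9.3 and 31.8 and the purine receptor P2ry12 between 1.7 and 30.3. In the longer list 12 of 30 genes were tested, with 7 lower and 5 higher in transgenic mice (median -0.02). Cst3, a protease inhibitor abundant in microglia and astrocytes, read 1148, 1332, 820, 883, 1056 and 986, and Coro1a, an actin regulator of leukocytes, 289, 241, 306, 312, 392 and 298. Cst3 was highest on control mouse 2 array 1, as were 5 of the 7 tested microglia members, and Coro1a was lowest there.

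Vascular markers had no common order of arrays. The median deviations were 0.37, 0.42, -0.08, 0.20, -0.35 and -0.08. Cldn5, the main claudin of the blood-brain barrier, read 140, 88.3, 62.4, 42.5, 45.2 and 54.8, with all 3 transgenic arrays below all 3 control arrays. The other endothelial genes overlapped between groups: Kdr, a VEGF receptor, read between 26.7 and 46.3, the cadherin Cdh5 between 22.4 and 50.9 and the adhesion molecule Esam between 42.6 and 74.9. Kdr was highest on transgenic mouse 1 and lowest on control mouse 1, the reverse of the array order of the oligodendrocyte genes.

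Among mural genes, Pdgfrb, the receptor of pericytes, read 57.1, 76.9, 20.8, 28.9, 48.9 and 24.1. In both mice with 2 arrays, array 1 exceeded array 2, by 3.70-fold and 2.03-fold. Rgs5, a regulator of G protein signalling in pericytes, read between 90.0 and 145, and Vtn, a secreted adhesive protein that pericytes make, between 25.8 and 56.5. Pecam1, the general endothelial adhesion molecule, was under the floor on all 6 arrays, while Flt1 (7.2 to 49.9) and Tek (17.2 to 29.3) were under the filter. Of 27 further endothelial genes 21 were tested, 11 lower and 10 higher (median -0.03), and of 15 further mural genes 4, with 2 in each direction. Slc2a1, the glucose transporter of brain endothelium, read between 719 and 1137, and the smooth muscle actin gene Acta2 between 46.1 and 123, neither separating the groups.

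**Figure D3:**
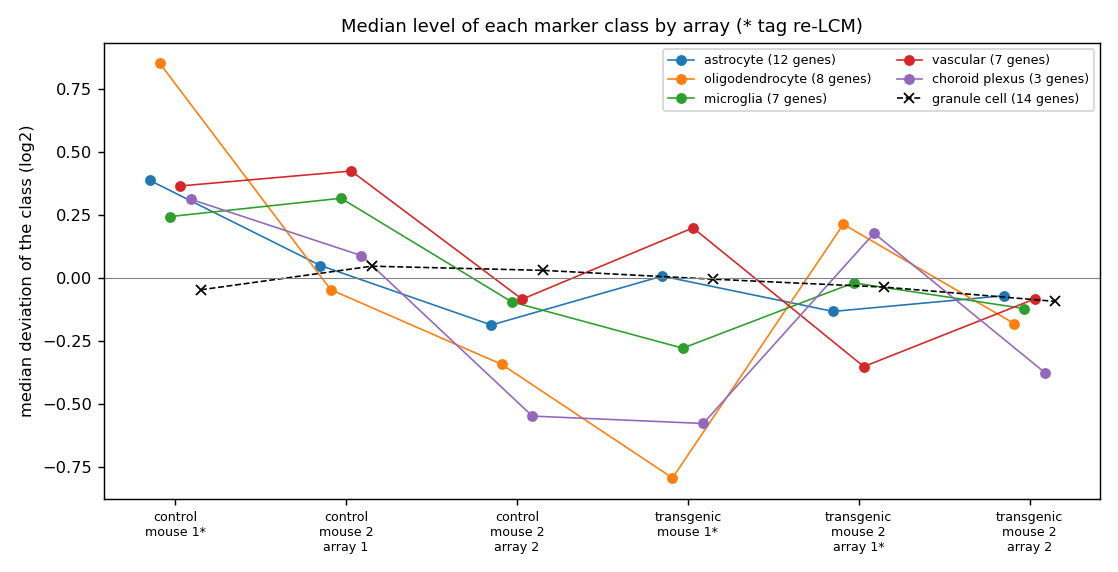
For each array, the median over the tested genes of a class of the log2 intensity minus the mean of that probe set over the 6 arrays; points are shifted sideways for legibility and lines join the points of a class for reading only. Oligodendrocyte genes span from 0.85 on control mouse 1 to -0.79 on transgenic mouse 1, and the 14 granule cell genes stay between -0.09 and 0.05; interneuron and pyramidal cell genes, not plotted, reach 0.73 and 0.46 on control mouse 1.

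Against this variation between arrays, the comparison of the groups made no call. With 2 mice against 2, none of 14678 genes passed an adjusted p of 0.05 in limma (0%), and 632 had an unadjusted p under 0.05. Among the 37 tested members, 0 passed. The fitted means of 31 were lower and of 6 higher in mice labelled transgenic, with a median difference of -0.33 beside 0.003 over all genes. Adjusted p-values were 0.999 for every member. The members above that share a cell type also share arrays, so these counts are not independent observations.

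By class, the median difference was -0.73 for oligodendrocyte genes (8 of 8 lower), -0.33 for microglia (7 of 7 lower), -0.26 for vascular genes (5 lower, 2 higher), -0.21 for astrocytes (9 lower, 3 higher) and -0.05 for the choroid plexus (2 lower, 1 higher). The 14 granule cell genes had a median of -0.03, with 8 lower and 6 higher. Each median other than that of microglia turned direction when some mice or arrays were left out. Within the 3 untagged arrays the oligodendrocyte median was 0.15, the astrocyte median 0.09 and the choroid plexus median 0.21. These arrays come from control mouse 2 and transgenic mouse 2 only. They set 1 mouse against 1, so the tag and the mouse cannot be told apart there. The oligodendrocyte median did not turn when a single mouse or array was left out. Without control mouse 1 the oligodendrocyte median was -0.30, the astrocyte median 0.04 and the vascular median -0.09, and without transgenic mouse 2 the vascular median was 0.0017. Without transgenic mouse 1 the oligodendrocyte median was -0.34 and the choroid plexus median 0.037. The microglia median stayed between -0.47 and -0.21 whichever mouse or array was left out. This is for 1 probe set per gene of the 7 tested members. Of their 13 probe sets past the filter 10 were lower and 3 higher, and the longer microglia list had a median of -0.02.

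All 3 transgenic arrays lay below all 3 control arrays for 2 members, Sox10 and Cldn5 (5.41% of 37), against 4.22% of all genes. They lay above for 0 members, against 3.86% of all genes. The share of members set apart was thus near that of all genes. Sox10 had the largest difference of any member, at -1.20 (SE 0.40, 95% interval -2.24 to -0.15), and Cldn5 the next, at -1.15 (SE 0.34, interval -2.05 to -0.25). These were the 2 members with an unadjusted p under 0.05, and neither was called by limma after adjustment. Leaving out transgenic mouse 1 moved Sox10 to -0.63, and leaving out control mouse 1 moved Cldn5 to -0.69. The other Sox10 probe sets went the other way, at 0.36 and, under the filter, 0.91.

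The next differences were those of Mal (-1.0, SE 0.65), S100b (-0.87, SE 0.35, against -0.006 on its second probe set), Olig1 (-0.86, SE 0.45) and Cldn11 (-0.81, SE 0.51). Their intervals all included 0. Mobp differed by -0.57 (SE 0.65) and by 0.39 without control mouse 1. Mbp differed by -0.27 (SE 0.41), beside an SD of 0.82 between the 2 control mice. Of the 6 members with a higher mean, Kdr had the largest difference, 0.35 (SE 0.25). Of the 16 genes with more than 1 probe set past the filter, 7 had probe sets that differed in direction, Mbp, Csf1r, Laptm5 and Ttr among them.

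**Figure D4:**
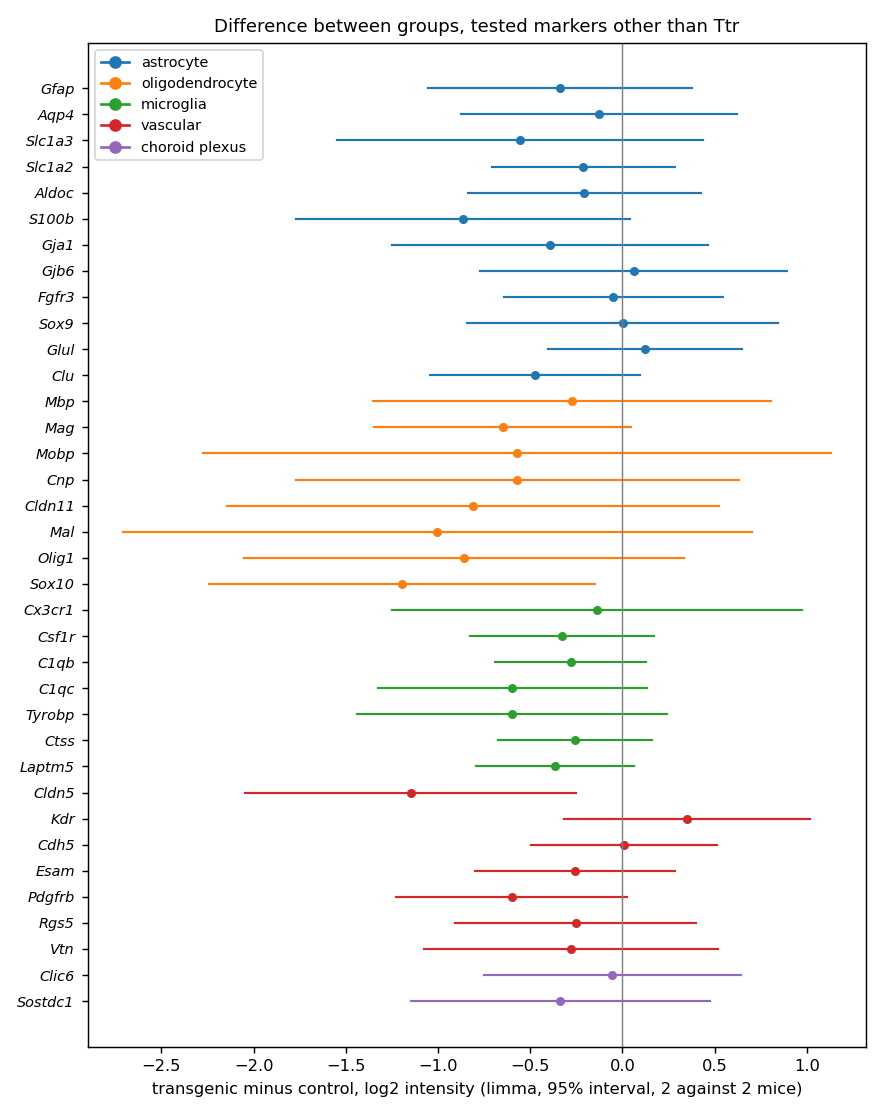
Difference in mean log2 intensity, transgenic minus control mice, with its 95% interval from limma (2 against 2 mice, not adjusted for the number of genes), for 36 tested members coloured by class; Ttr, at 0.10 with an interval of -5.23 to 5.42, is left out for scale. Most points lie below 0, and only the intervals of Sox10 and Cldn5 leave out 0. The other Sox10 probe sets, not plotted, went the other way.

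The tag re-LCM was compared within the model for group, over 6 arrays taken as separate samples. Arrays of the same mouse were not averaged here, so the SEs and p-values for the tag mix spread within and between mice. Tagged and untagged arrays gave 0 calls (0%) among 14678 genes by limma, with 754 at an unadjusted p under 0.05. The members had a median difference, tagged minus untagged, of 0.19, with 28 higher and 9 lower. Ttr had the largest, 3.67 (SE 1.42, adjusted p = 0.937), followed among myelin genes by Mobp at 1.12 (SE 0.43) and Mbp at 0.74 (SE 0.27), both with the same adjusted p. All 6 tested myelin genes were higher in the tagged arrays, with a median of 0.50, while both lineage factors were lower, Olig1 by -0.09 and Sox10 by -0.13. By class the medians were 0.43 for oligodendrocyte, 0.24 for astrocyte, 0.19 for vascular, 0.16 for choroid plexus and 0.01 for microglia genes. Leaving out the array of control mouse 1 turned the oligodendrocyte median to -0.15, the astrocyte median to -0.06, the vascular median to -0.11 and the microglia median to -0.009. Leaving out control mouse 2 array 2 turned the choroid plexus median to -0.096 and the microglia median to -0.079, and leaving out transgenic mouse 2 array 1 turned the microglia median to -0.027. Without control mouse 1, 3 of the 6 myelin genes were higher and 3 lower in the tagged arrays, with Mobp at 0.32, Mbp at 0.31, Cldn11 at -0.42 and Mal at -0.44. The 1 tagged control array is the only array of control mouse 1, so in the control group the tag and the mouse cannot be told apart.

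The 2 arrays of a mouse gave a measure of how far these markers move with no change of animal, as the descriptions assign them. Both arrays of control mouse 2 are untagged. In transgenic mouse 2 array 1 is tagged and array 2 is not, so there the difference between arrays cannot be told apart from the tag. Over all genes the median absolute difference between such arrays was 0.28 in control and 0.30 in transgenic mice, and the median signed difference was near 0. In control mouse 2, array 1 exceeded array 2 by a median of 0.53 for oligodendrocyte, 0.51 for microglia, 0.50 for vascular, 0.26 for choroid plexus and 0.09 for astrocyte genes. In transgenic mouse 2, array 1 exceeded array 2 by 0.35 for oligodendrocyte, 0.12 for choroid plexus and 0.09 for microglia genes, while vascular and astrocyte genes were lower on array 1, by -0.28 and -0.18. Between the groups the medians were -0.73 for oligodendrocyte, -0.33 for microglia and -0.26 for vascular genes.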

How the data were processed

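The authors deposited linear intensities per Affymetrix probe set, already scaled: the 2% trimmed mean is 150.001 on each array. The program that combined probes is not given in the sources used here, nor is its background correction, which bears on dim probe sets. Of 45101 probe sets, 64 controls were left out; 34945 of the rest carry 1 symbol in the platform annotation, 932 several and 9160 none. RefSeq matched 34741 and changed 0 symbols. Median intensities ran from 32.3 to 36.8. Intensities under the pooled 25th percentile (10.1) were floored, which touched 23.9% to 26.4% of an array, and log2 was taken. A gene was tested where its best probe set had a mean log2 above 4.92, the median of all.

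The mouse was the replicate in the comparison of the groups. Groups were compared with limma 3.58.1 in R 4.3.3 (lmFit, eBayes; 2 residual and 2.70 prior degrees of freedom), adjusted by Benjamini-Hochberg over 14678 genes at 0.05, and tested on simulated data. The tag was fitted per array beside the group. The number of mice and arrays limits the precision. Members, lists and alternatives were chosen with earlier results of these data known, and 4 alternatives on class levels were added after seeing the data. All 52 members could be named. Of each longer list, the brightest 2 genes and the 2 of largest difference could be named. Irf2bpl and Elavl4 stand outside that rule. Alternatives changed scaling, floor, filter, probe set choice, replicate unit, tag, block, variance model and which mice or arrays entered.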

Additional observations from a re-analysis of the deposited data

Results flagged for a closer look

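The mean level of astrocyte markers was 0.47 log2 units higher on the tagged than on the untagged control arrays, but -0.04 on the tagged relative to the untagged transgenic arrays, a gap of 0.51. For microglia markers the same values were 0.24 and -0.21, a gap of 0.45. These 2 were picked out because every tagged array lay above the untagged arrays in one group and below them in the other. The difference between the groups was not tested, and the control group holds 1 tagged array. Larger gaps of the same kind, without that separation of single arrays, were 1.16 for oligodendrocyte markers (0.999 and -0.16) and 1.38 for choroid plexus markers (1.97 and 0.58). The choroid plexus values are means over 3 tested genes and mostly reflect Ttr. The fitted tag differences were 3.67 for Ttr, 0.16 for Clic6 and -0.007 for Sostdc1.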

How the results depend on the processing

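Across 21 alternatives no member was called, and 13 of 37 kept their direction in all of them; within the untagged arrays 16 of 37 turned. The count of genes called was 0 in each alternative but a variance trend with robust variance, which called 1 gene, Edil3 (limma adjusted p = 0.00982, the lowest of a range up to 1 over its settings), no member. Scaling, floor and probe set choice left control mouse 1 the highest array for 19 to 20 members and transgenic mouse 1 the lowest for 14 to 16. Scaling to the same median shifted all genes by up to 0.105 and gave 8 members higher and 29 lower; quantile normalization gave 5 and 32. Within tagged and untagged arrays the median difference was -0.50 and 0.087 for astrocyte and -0.42 and -0.076 for vascular genes, and 0.15 within untagged arrays for oligodendrocyte genes. Leaving out a mouse or an array gave -0.48 to 0.039 for astrocyte, -1.26 to -0.30 for oligodendrocyte, -0.47 to -0.21 for microglia, -0.48 to 0.0017 for vascular and -0.71 to 0.04 for choroid plexus genes. For the tag, leaving out an array gave -0.064 to 0.47, -0.15 to 1.06, -0.08 to 0.14, -0.11 to 0.37 and -0.10 to 0.48 in the same order of classes. With the floor at the median intensity the vascular level was -0.36 on transgenic mouse 1 and -0.27 on transgenic mouse 2 array 2, over fewer genes. A filter at the 75th percentile left no vascular gene. With the mouse number as a replicate block 0 genes were called. Same-numbered mice deviated together only weakly over the genes (correlation 0.0332). With 2 mice per group this cannot show whether same-numbered mice were paired. The causes were not tested.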
